A study of Rattus norvegicus with 30 samples.

Results

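Genes of hepatic fatty acid oxidation and targets of the nuclear receptor PPAR-alpha were followed in rat liver across 6 diets that differed in their protein source. The 9 genes were *Pdk4*, *Angptl4*, *Cpt1a*, *Cpt2*, *Acadl*, *Acadm*, *Hadha*, *Hadhb* and *Vnn1*, taken as every probe set annotated to 1 of these symbols. They had 13 of the 31042 probe sets that are no controls, and 12 of these were among the 18625 probe sets bright enough to test (10699 genes); all 9 genes kept at least 1. The study used 1 Affymetrix array for each of 30 livers, 5 per diet. The animals were male Sprague-Dawley rats that arrived at 4 weeks of age, spent 5 days on a commercial chow and then ate their experimental diet freely for 14 days. The casein diet (C) had 200 g/kg of casein protein. CI was the casein diet with an isoflavone mixture. S had 200 g/kg of soy protein in place of casein, and SI was S with the isoflavone mixture. T20 took its 200 g/kg of protein from freeze-dried tofu, and T10 mixed 100 g/kg of tofu protein with 100 g/kg of casein. The isoflavone in CI and SI was set to the amount in T20, so T20 carries isoflavone and C and S have none added. Livers of a group are called biological replicates in the labels, so the p-values measure the spread between rats. The study's title concerns tofu, serum lipids and hepatic genes of lipid metabolism.

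Fatty acids are burned in mitochondria by beta-oxidation, a cycle that shortens the acyl chain and releases acetyl-CoA. Long chains enter through the carnitine shuttle, whose outer enzyme Cpt1a is inhibited by malonyl-CoA. PPAR-alpha senses fatty acids, pairs with the retinoid X receptor on direct repeats of AGGTCA, and in liver switches on oxidation, ketogenesis and several secreted or regulatory proteins, above all in fasting. Pdk4 is a kinase that shuts off pyruvate dehydrogenase and so spares glucose, and Angptl4 is a secreted inhibitor of lipoprotein lipase. Both are among the most responsive PPAR-alpha targets and both also answer to glucocorticoids and, for Pdk4, to insulin.

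The promoters of *Pdk4* and *Angptl4* are shown because these genes had the largest falls, and that of *Hadha* because it faces *Hadhb*. Each is the 250 bases before the start site on the gene's own strand, from RefSeq's promoter table (GRCr8), which matched 7 of the 9 genes; *Acadl* and *Vnn1* had no entry. Capitals mark the matches named after the sequences.
Pdk4, chr4:34568330-34568579, minus strand: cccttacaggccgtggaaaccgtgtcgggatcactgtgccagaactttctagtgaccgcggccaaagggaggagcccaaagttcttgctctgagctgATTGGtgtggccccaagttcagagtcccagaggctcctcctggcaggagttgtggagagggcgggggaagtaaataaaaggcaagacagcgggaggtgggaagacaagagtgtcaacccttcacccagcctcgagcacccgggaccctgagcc
Angptl4, chr7:15258682-15258931, minus strand: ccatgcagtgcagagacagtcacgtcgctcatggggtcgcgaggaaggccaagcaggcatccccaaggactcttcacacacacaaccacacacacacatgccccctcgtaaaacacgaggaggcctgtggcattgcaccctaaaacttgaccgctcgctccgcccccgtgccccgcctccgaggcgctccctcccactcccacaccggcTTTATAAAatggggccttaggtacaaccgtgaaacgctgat
Hadha, chr6:31907551-31907800, plus strand: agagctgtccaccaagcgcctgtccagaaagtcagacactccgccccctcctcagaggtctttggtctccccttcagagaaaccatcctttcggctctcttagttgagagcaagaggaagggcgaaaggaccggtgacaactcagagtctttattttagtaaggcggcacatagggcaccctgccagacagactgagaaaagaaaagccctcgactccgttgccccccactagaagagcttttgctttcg
On both strands, 5 motifs were searched first. These were AGGTCA (in 14.1% of the 33469 promoters of the table), its direct repeat AGGTCANAGGTCA (in 0.0508%), the looser repeat AGGNCANAGGNCA (in 0.368%), TGTTCT from the glucocorticoid element (in 17.5%) and the E-box CACGTG (in 5.59%). None was found in the 7 windows. TATAAA (in 12.9% of promoters) and CCAAT (in 34.0%) were added after that result. *Angptl4* had 2 overlapping TATAAA matches, 1 on each strand, that start 41 and 39 bases before its start site, and *Pdk4* had 1 CCAAT on the opposite strand, 153 bases before. *Hadha* and *Hadhb* encode the alpha and beta subunits of 1 complex and are transcribed away from each other: their starts lie 301 bases apart and their windows share 200 bases.

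All values are log2 of the deposited, normalized intensity. Differences are given ± SE (n = 5 livers per diet), with limma's adjusted p and a threshold of 0.05. The median intensity of an array was 217.4 at the lowest and 255.5 at the highest. Precision depends on how many arrays a diet has and on each gene's spread between livers. As a sign of RNA quality, the GAPDH control probe sets gave 3' to 5' ratios of 0.970 to 1.25 in 27 arrays and of 1.33 to 1.58 in the rest, T10 replicates 3, 4 and 5; for actin, the ranges were 1.84 to 2.89 and 2.35 to 2.43. In the labels, identical normalization parameters stand for C replicate 3 and CI replicate 3. Of 8 hepatocyte markers 7 were on the array, all far above the filter, and *Alb* was at 16.38 or higher in every liver. Among them *Hnf4a* was lower in S against C (-0.53 ± 0.14, adjusted p = 0.0203 in limma), and *Serpina1* (0.24 ± 0.06, 0.0157) and *Cyp2e1* (0.43 ± 0.13, 0.0336) were higher in SI against CI. The summed hepatocyte level was 18.32 to 18.65 in C, 18.43 to 18.61 in S, 18.33 to 18.60 in CI and 18.47 to 18.82 in SI. Of the markers of other cell types, with T20 against C, *Lyve1* (1 of 5 endothelial), *Rgs5* (1 of 5 stellate) and *Cela1* (the 1 tested of 5 pancreatic) were higher. *Rgs5* was also higher in T20 against CI (0.83 ± 0.13, adjusted p = 0.000471) and T20 against SI (0.91 ± 0.13, 0.00024). *Cela1* was higher in T20 against SI (1.13 ± 0.19, 0.00112) and lower in SI against CI (-0.68 ± 0.19, 0.0182). The muscle marker *Myh1* (1 of 2 tested of 8) was higher in SI against CI. Summed levels were 13.30 to 13.51 in C and 13.46 to 13.67 in T20 for endothelium, 13.74 to 14.00 and 13.76 to 14.00 for stellate cells, and 11.14 to 11.41 and 11.33 to 12.57 for pancreas, which was at 11.29 to 11.82 in CI and 10.53 to 11.21 in SI. The other pancreatic markers (*Cpa1*, *Prss1*, *Amy2a3*, *Pnlip*) were below the filter and no marker was at 0. Their part in the results was not tested. In whole liver, fewer cells of a type and less RNA per cell cannot be told apart.

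Across the 6 diets, 4 of the 9 genes differed by the moderated F test: *Vnn1* (adjusted p = 0.000109), *Pdk4* (0.000297), *Angptl4* (0.00284) and *Acadl* (0.0426). Over the array 12.9% of the tested probe sets passed that test. The regulators *Pdk4* and *Angptl4* had the widest spread of diet means, 1.62 and 1.25. Among the 9 genes, those for enzymes of the beta-oxidation cycle moved little: diet means spanned 0.33 for *Acadl*, 0.28 for *Acadm*, 0.12 for *Hadha* and 0.19 for *Hadhb*. *Acadl* was no longer among the genes passing the F test when both arrays with shared parameters, or T10 replicates 3, 4 and 5, were left out; the other 3 remained.

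**Figure D1:**
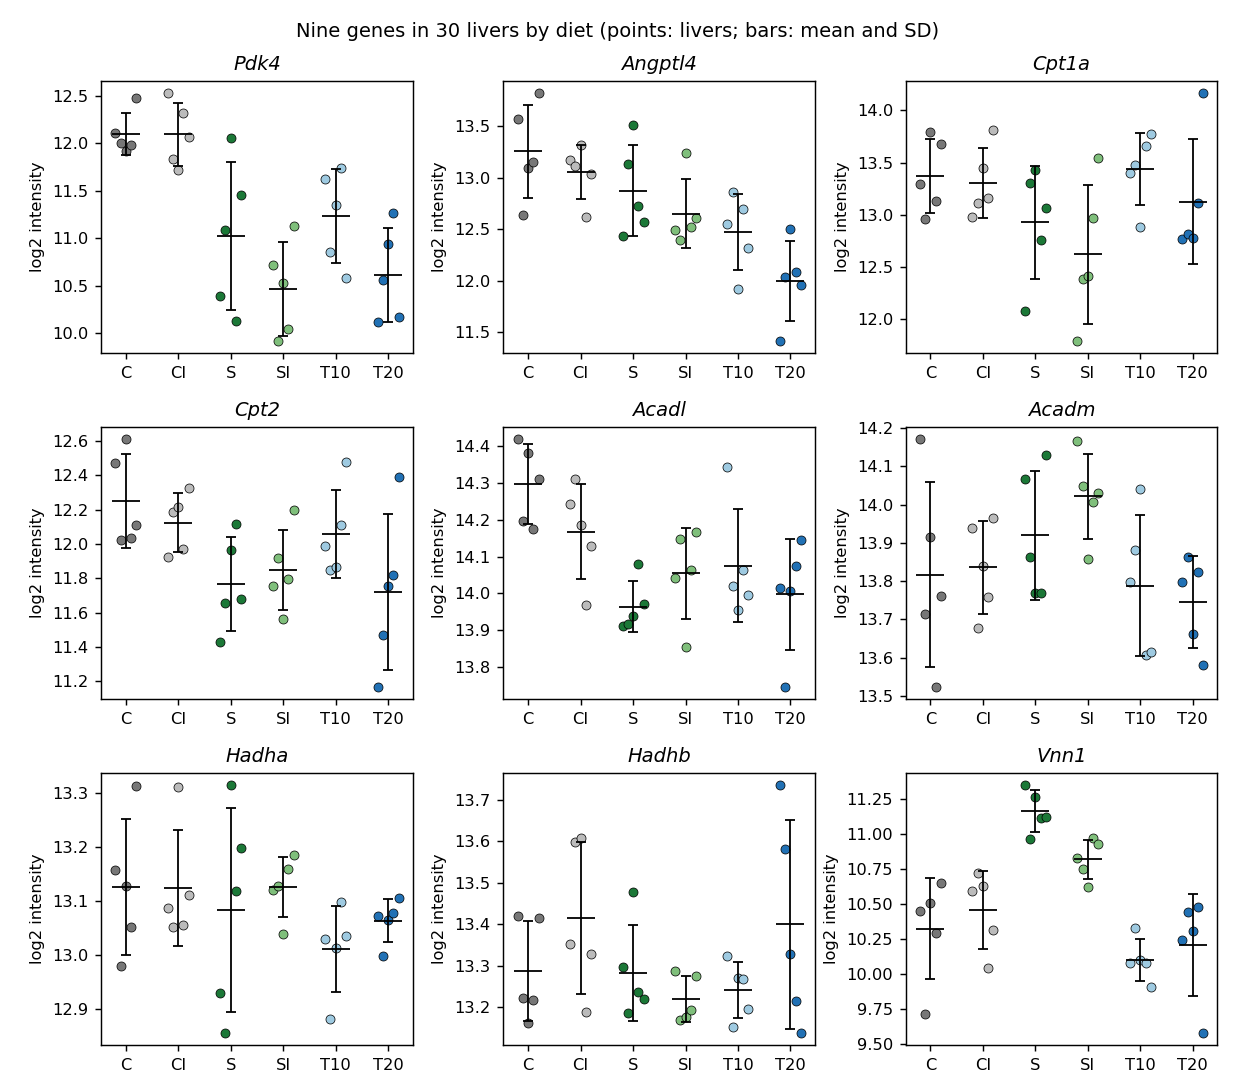
Level of each of the 9 genes in the 30 livers, as log2 intensity on the vertical axis (each panel has its own range) and diet on the horizontal axis, with a point per liver and bars for the mean and SD of 5 livers. *Pdk4* lies between 11.72 and 12.52 in the 10 casein-fed livers of C and CI, while *Vnn1* is highest in S.

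*Pdk4* was lower with T20, SI and S than with casein. Its log2 level was 12.10, 12.00, 11.92, 11.98 and 12.47 in the 5 C livers and 12.52, 11.84, 11.72, 12.32 and 12.06 with CI. With T20 it was 10.12, 10.57, 10.94, 11.26 and 10.17, and with SI 10.72, 9.92, 10.53, 10.05 and 11.12. Every T20 and every SI liver was below all 10 casein livers. In S the values spread further, 10.39, 11.09, 12.06, 10.13 and 11.45, and 1 liver reached the casein range. T10 stood between T20 and C at 11.62, 10.86, 11.35, 11.74 and 10.58, below every C liver but reaching into CI. In the order of diet means, SI (10.47), T20 (10.61), S (11.02), T10 (11.23), CI (12.09) and C (12.09), only T10 and CI were neighbours further apart than the larger of their SDs.

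*Pdk4* fell by 1.48 ± 0.30 in T20 against C, a 2.80-fold lower intensity (adjusted p = 0.00448). Against CI, which matches T20 in isoflavone and shares no array with C, the difference was -1.48 ± 0.30 (adjusted p = 0.00579). The T20 livers are the same in both comparisons. Soy protein gave -1.62 ± 0.30 in SI against CI (3.08-fold lower, adjusted p = 0.000736). These calls held in every alternative tried and with each array left out. S against C gave -1.07 ± 0.30 (adjusted p = 0.0240). That call was lost without C replicate 5 (adjusted p = 0.0651), S replicate 1 (0.0737) or S replicate 4 (0.0867), and when only S and C were fitted (0.0623). T10 against C, at -0.86 ± 0.30, did not pass (adjusted p = 0.300), nor did T20 against T10 (-0.62 ± 0.30, adjusted p = 0.695). T20 and SI differed by 0.14 (95% interval -0.47 to 0.75, adjusted p = 0.847), and without T20 replicate 4 the sign turned (-0.02).

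Both *Pdk4* probe sets gave the same picture. The dimmer one fell by 0.81 ± 0.18 in T20 against C (adjusted p = 0.00824), by 0.65 in T20 against CI (0.0467), by 0.71 in S against C (0.0117) and by 0.77 in SI against CI (0.00518). Its differences were smaller than those of the brighter set. Across the 30 livers the sets correlated at r = 0.967, and at 0.953 after each diet's mean was removed. The order of livers within a diet was not always the same. C replicate 1 was above C replicate 2 on the brighter set (12.10 and 12.00) and below it on the dimmer one (10.46 and 10.54). Both sets share the RNA sample and the array.

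**Figure D2:**
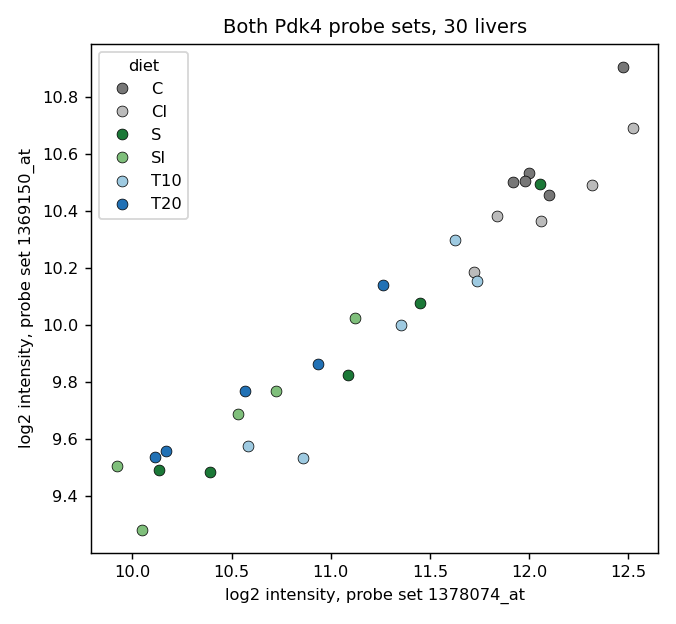
Both *Pdk4* probe sets in the same 30 livers: log2 intensity of the brighter set on the horizontal axis, of the dimmer set on the vertical axis, a point per liver coloured by diet. The points follow 1 line (r = 0.967), with C and CI at the upper end and 1 S liver among them.

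*Angptl4* was lowest with T20. Its level was 13.57, 12.64, 13.10, 13.15 and 13.82 in C and 13.17, 13.12, 13.31, 12.62 and 13.04 in CI. T10 gave 12.55, 12.87, 11.92, 12.70 and 12.32, and T20 gave 11.42, 12.04, 12.50, 12.09 and 11.96. All T20 livers were below all C and CI livers, while T10 overlapped both neighbours. With S it was 12.43, 13.13, 13.52, 12.73 and 12.57, and with SI 12.50, 12.40, 13.24, 12.52 and 12.61, and both diets overlapped casein. From lowest to highest mean the order was T20 (12.00), T10 (12.47), SI (12.65), S (12.88), CI (13.05) and C (13.26); only T20 and T10 were neighbours separated by more than the larger SD.

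*Angptl4* fell by 1.25 ± 0.23 in T20 against C (2.38-fold lower, adjusted p = 0.00203) and by 1.05 ± 0.23 in T20 against CI (2.07-fold lower, adjusted p = 0.0108). Both calls held in every alternative tried and with each array left out. For T10 against C the difference was -0.78 ± 0.23 and did not pass (adjusted p = 0.177); T20 against T10 was -0.47 ± 0.23 (0.700). The soy diets gave -0.38 ± 0.23 in S against C (adjusted p = 0.350) and -0.40 ± 0.23 in SI against CI (0.254), and neither passed. The direct comparison of T20 with SI was -0.65 ± 0.23 (95% interval -1.11 to -0.19), which did not pass after adjustment (0.103), so a difference between tofu and soy protein in this gene was not established.

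The carnitine shuttle genes varied widely from rat to rat. *Cpt1a*, the outer and rate-setting enzyme, was 13.30, 12.96, 13.79, 13.13 and 13.68 in C and 12.98, 13.11, 13.45, 13.16 and 13.81 in CI. It was 12.08, 13.30, 13.43, 12.76 and 13.07 in S and 11.79, 12.39, 12.42, 12.97 and 13.55 in SI. With T10 it was 13.40, 13.48, 12.88, 13.66 and 13.77 and with T20 12.77, 12.81, 12.78, 13.11 and 14.16. Every pair of groups overlapped, and 1 T20 liver had the highest value of all 30. SI against CI was -0.68 ± 0.29 (adjusted p = 0.122), S against C -0.45 ± 0.29 (0.402) and T20 against C -0.25 ± 0.29 (0.673). None passed, although SI against CI passed without SI replicate 5 (-0.91, adjusted p = 0.0479) and with the replicate number as a block (0.0441). T10 against C was 0.06 ± 0.29 (adjusted p = 0.961) and turned sign without C replicate 2 or T10 replicate 5 (lowest -0.04). The second *Cpt1a* probe set, on the same arrays, tracked the first at r = 0.963 and passed in no comparison.

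*Cpt2*, the inner enzyme of the shuttle, was 12.47, 12.03, 12.61, 12.03 and 12.11 in C and 11.17, 11.47, 11.75, 11.82 and 12.39 in T20. In 4 of 5 T20 livers it was below every C liver. The other diets ranged from 11.92 to 12.33 (CI), 11.43 to 12.11 (S), 11.56 to 12.20 (SI) and 11.85 to 12.48 (T10). The T20 difference from C was -0.53 ± 0.17 and did not pass (adjusted p = 0.0754). Without T20 replicate 5, the liver at 12.39, it was -0.70 ± 0.16 and passed (adjusted p = 0.0121), as it did with the replicate number as a block (0.0488). S against C gave -0.48 ± 0.17 (adjusted p = 0.0924) and SI against CI -0.28 ± 0.17 (0.311).

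Among the dehydrogenases that open the beta-oxidation cycle, *Acadl* (long chain) was lower in S and T20 than in C and *Acadm* (medium chain) showed no call. *Acadl* was 14.42, 14.20, 14.38, 14.17 and 14.31 in C, 13.91, 13.92, 13.94, 14.08 and 13.97 in S, and 14.01, 13.75, 14.01, 14.08 and 14.15 in T20. Neither S nor T20 overlapped C. CI spanned 13.97 to 14.31, SI 13.85 to 14.17 and T10 13.96 to 14.34. *Acadl* fell by 0.33 ± 0.08 in S against C (1.26-fold lower, adjusted p = 0.0124) and by 0.30 ± 0.08 in T20 against C (1.23-fold lower, 0.0375). In SI against CI it was -0.11 ± 0.08 (adjusted p = 0.397), in T20 against CI -0.17 ± 0.08 (0.312) and in T10 against C -0.22 ± 0.08 (0.345).

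The T20 call of *Acadl* was fragile. It was lost without C replicate 1 (adjusted p = 0.0915), 3 (0.0990) or 5 (0.0722), or T20 replicate 1 (0.0712), 2 (0.125) or 3 (0.0556). Bringing the arrays to an equal median and spread reduced it to -0.02 (adjusted p = 0.942), and it was lost as well with median centring, with no filter on dim probe sets and with only T20 and C fitted. The S call was lost with an equal median and spread and with median centring (adjusted p up to 0.197). Leaving out C replicate 3 with CI replicate 3 gave -0.28 ± 0.09 in T20 against C (0.107) and -0.31 ± 0.09 in S against C (0.0434).

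*Acadm* ranged from 13.52 to 14.17 in C (median 13.76), 13.77 to 14.13 in S (13.86), 13.86 to 14.17 in SI (14.03) and 13.58 to 13.86 in T20 (13.80). Its groups overlapped throughout. The largest difference was -0.28 ± 0.10 in T20 against SI (adjusted p = 0.134). *Hadha*, whose protein is the alpha subunit of the trifunctional complex for the last steps on long chains, stayed between 12.86 and 13.32 in all 30 livers, and *Hadhb* between 13.14 and 13.73. No comparison called either. Against C, T20 differed by -0.06 ± 0.08 for *Hadha* and 0.11 ± 0.10 for *Hadhb*, with 95% intervals of -0.22 to 0.09 and -0.08 to 0.31. The sign for *Hadha* turned when arrays were brought to an equal median and spread (0.17, adjusted p = 0.278), as did that for *Acadm* (from -0.07 to 0.20, adjusted p = 0.374). Of the other 2 *Hadha* probe sets, 1 was below the filter (mean 6.43) and the dimmer tested one correlated with the bright one at only r = 0.433.

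*Vnn1*, the pantetheinase that releases cysteamine and a PPAR-alpha target in liver, was highest in the soy protein diets. In S it was 11.35, 10.96, 11.26, 11.11 and 11.12, against 10.45, 9.72, 10.51, 10.29 and 10.65 in C. Every S liver exceeded every C liver. SI gave 10.83, 10.75, 10.62, 10.97 and 10.93, and CI 10.59, 10.72, 10.63, 10.04 and 10.31, so that 4 SI livers were above all CI livers. T20 gave 10.24, 10.44, 10.30, 10.48 and 9.58, and T10 10.08, 10.33, 10.10, 10.08 and 9.91, and both diets overlapped casein. The order was T10 (10.10), T20 (10.21), C (10.32), CI (10.46), SI (10.82) and S (11.16). CI and SI, and SI and S, were neighbours further apart than the larger SD.

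*Vnn1* rose by 0.84 ± 0.16 in S against C (1.79-fold higher, adjusted p = 0.00110), a call that held in every alternative tried and with each array left out. SI against CI was 0.36 ± 0.16 and did not pass (adjusted p = 0.133). T20 was 0.61 ± 0.16 below SI (1.53-fold lower, adjusted p = 0.0276), with no overlap. That call was lost without SI replicate 1 (adjusted p = 0.0507), 2 (0.0614), 4 (0.0668) or 5 (0.0657), or T20 replicate 1 (0.0624) or 5 (0.0746). It was lost as well when only T20 and SI were fitted or arrays had an equal median and spread (adjusted p up to 0.106). T20 against C was -0.11 ± 0.16 (adjusted p = 0.727) and turned to 0.04 without T20 replicate 5.

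**Figure D3:**
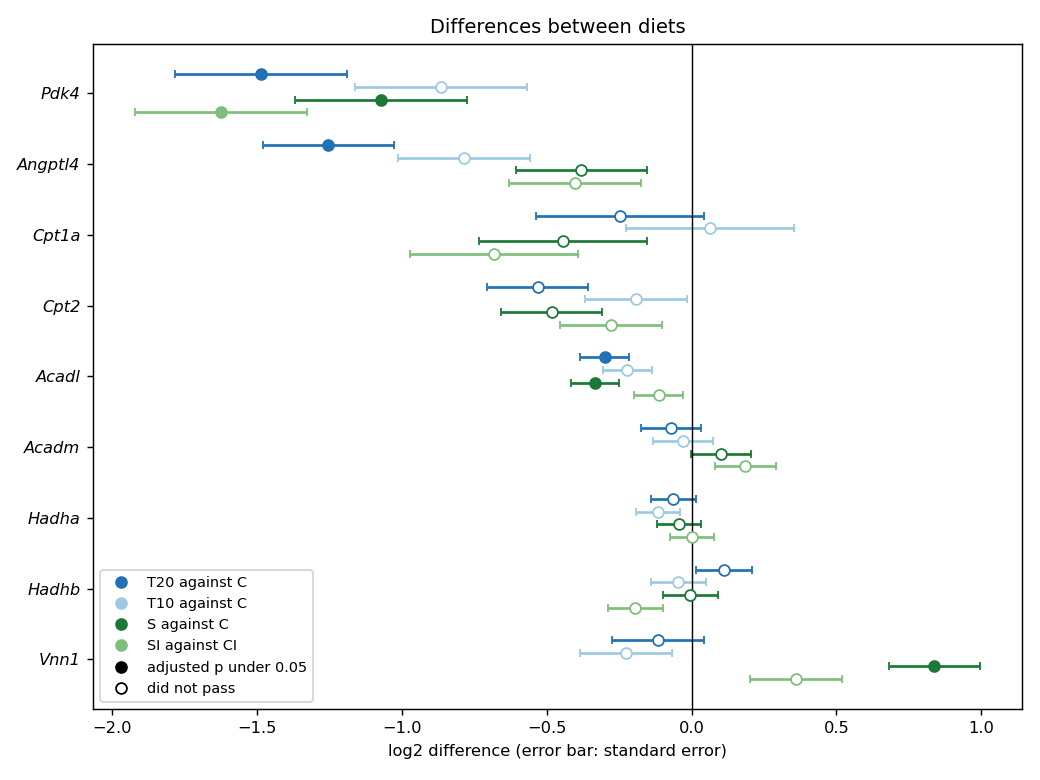
Log2 difference between diets on the horizontal axis, with its SE, for each of the 9 genes (rows) in 4 comparisons; filled points had an adjusted p under 0.05. The point furthest to the left is *Pdk4* in SI against CI (-1.62), and within T20 against C *Pdk4* and *Angptl4* lie furthest left (-1.48 and -1.25). *Vnn1* lies to the right with S against C (0.84). The open points of *Acadm*, *Hadha* and *Hadhb* near 0 include some that change sign under another scaling.

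Counted over the 9 genes, T20 against C called 3, all lower (*Angptl4*, *Pdk4*, *Acadl*), where 4.5% of all tested probe sets passed and 2.74% passed as lower. T20 against CI called 2 lower (*Pdk4*, *Angptl4*; 2.12% of probe sets passed, 1.04% as lower). S against C called 2 lower, *Pdk4* and *Acadl*, and 1 higher, *Vnn1* (7.25% passed, 4.27% as lower and 2.99% as higher). SI against CI called 1 lower, *Pdk4* (11.6%, and 6.14% as lower), and T20 against SI 1 lower, *Vnn1* (3.51%, and 1.87% as lower). By groups that do not overlap, T20 was below C for 3 genes (*Pdk4*, *Angptl4*, *Acadl*; 3.02% of probe sets), T10 below C for 1 (*Pdk4*; 1.15%) and T20 below CI for 2 (*Pdk4*, *Angptl4*; 2.14%). T20 lay wholly below SI for *Vnn1* (2.01% of probe sets), SI below CI for *Pdk4* (5.43%), S below C for *Acadl* (4.33%) and S above C for *Vnn1* (3.17%). With numbers this small, a single gene moves the share by 1 in 9. The median difference of the 9 was -0.25 in T20 against C and -0.33 in S against C, where all tested probe sets had medians of -0.01 and -0.04. In SI against CI it was -0.19 against -0.02, and in T20 against CI -0.18 against -0.0047. T20, T10 and S are all set against the same C livers, and T20 and SI against the same CI livers. All comparisons with T20 use the same T20 livers.

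Partial replacement of casein by tofu, and the isoflavone additions, gave no calls among the 9 genes in limma. T10 against C called 0 of 9, with 3 at an unadjusted p under 0.05 (*Pdk4*, *Angptl4*, *Acadl*); over the array 0.322% of probe sets passed and 9.91% had such an unadjusted p. Without T10 replicates 3, 4 and 5 it again called 0, with *Pdk4* at -0.85 and *Angptl4* at -0.55. T20 against T10 called 0, with 2 at an unadjusted p under 0.05, beside 0% and 7.08% of probe sets. CI against C called 0, with 0 at an unadjusted p under 0.05, and SI against S called 0, with 1 (*Vnn1*); both passed 0% of probe sets, and 8.62% and 3.57% had an unadjusted p under 0.05. The differences ran from -0.20 to 0.14 in CI against C and from -0.55 to 0.10 in SI against S. Their 95% intervals reached -0.67 and 0.60, and -1.16 and 0.44, so isoflavone differences of that size could go undetected. Whether isoflavone acted differently on soy protein and casein was tested by the interaction, which called 0 of 9 (1 at an unadjusted p under 0.05, adjusted p 0.532 to 0.985, 0.0161% of probe sets passing and 9.21% at an unadjusted p under 0.05).

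Other genes of the pathway were taken from 5 lists with 57 genes, of which 48 were tested. *Abcd2*, *Acot1* and *Pdk3* were below the filter, and the rest were not analysed here. T20 against C called 3 of 48 lower and 0 higher, where 2.74% of all tested probe sets were called lower. T10 against C called 2 lower (0.193% of probe sets) and T20 against SI 1 lower (1.87%). T20 against CI called 3 lower and 1 higher, beside 1.04% and 1.08% of probe sets. S against C called 7 lower (4.27%) and SI against CI 9 lower and 2 higher (6.14% and 5.5%). CI against C and SI against S called 0 of 48 in limma, with 1 and 0 at an unadjusted p under 0.05. The median of the 48 differences was -0.12 in T20 against C (33 below 0), -0.13 in S against C (35), -0.12 in SI against CI (31) and -0.15 in T20 against CI (31), where all tested probe sets had medians of -0.0074, -0.0359, -0.0233 and -0.0047. It was -0.0446 in T10 against C (30 below 0) and 0.0105 in T20 against SI (23 below 0), beside -0.0277 and 0.0207.

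In the list of entry control, *Acacb* had the most calls. It encodes the acetyl-CoA carboxylase that makes the malonyl-CoA which inhibits Cpt1a. Its level was 8.38, 8.53, 9.27, 8.84 and 9.07 in C, 7.71, 7.58, 7.82, 8.45 and 8.21 in T10 and 7.39, 7.86, 7.78, 8.18 and 8.21 in T20. With S it was 7.46, 7.74, 7.85, 7.81 and 7.65, with SI 7.89, 7.50, 7.60, 7.32 and 7.23, and with CI 8.46, 8.65, 8.42, 8.83 and 8.55. All livers of T20, S and SI were below all livers of C and CI. *Acacb* fell by 0.93 ± 0.18 in T20 against C (adjusted p = 0.00296), by 1.11 ± 0.18 in S against C (0.000173) and by 1.08 ± 0.18 in SI against CI (0.000243). It was 0.70 ± 0.18 lower in T20 against CI (0.0328), lost without CI replicate 2 (0.0617), 4 (0.105) or 5 (0.0562) or T20 replicate 1 (0.104), 2 (0.0565) or 3 (0.0668), and with no filter or only these groups fitted (up to 0.0693). T10 against C was -0.86 ± 0.18 (0.0215), lost without C replicate 3 (0.0935) or 5 (0.0738) or T10 replicate 1 (0.0591) or 2 (0.0954), with only these groups fitted, and without C replicate 3 with CI replicate 3 (up to 0.184). *Cpt1b*, the muscle form of the outer carnitine enzyme, was 0.41 ± 0.11 higher in SI against CI (0.0122), a call lost with only these groups fitted (0.0710). In the same comparison *Myh1* was 0.49 ± 0.13 higher (0.0126). The summed muscle level was 13.72 to 14.54 in CI and 14.59 to 14.79 in SI. That sum is set by *Myh1*, whose diet means were 14.14 to 14.64. *Tnnt3*, also tested, had diet means of only 7.60 to 8.14, and 6 of the 8 muscle markers were below the filter. The part of these markers in the *Cpt1b* call was not tested. The other 6 genes of this list had no call.

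In the list of mitochondrial beta-oxidation, 13 of 13 genes were tested. *Acad11*, an acyl-CoA dehydrogenase, fell by 0.68 ± 0.16 in T20 against C (adjusted p = 0.0164, lost without T20 replicate 2 at 0.0597 and with only these groups fitted at 0.0575), by 0.98 ± 0.16 in S against C (0.000334) and by 0.88 ± 0.16 in SI against CI (0.000972). S against C called 3 lower, where 4.27% of all tested probe sets were called lower. Besides *Acad11* these were *Eci1* and *Eci2*, isomerases for unsaturated chains. *Eci1* was at -0.67 ± 0.18 (0.0169), but its second probe set was at -0.04 (0.981), and the call was lost with an equal median and spread or the mean of both sets (up to 0.542). *Eci2* was at -0.29 ± 0.08 (0.0171), lost without C replicate 1 (0.0606) or 5 (0.0525), and with median centring, an equal median and spread, or only these groups fitted (up to 0.131). SI against CI, where 6.14% of all probe sets were called lower and 5.5% higher, called 5 lower and 1 higher of the 13, among them *Decr1*, the reductase for unsaturated chains (-0.52 ± 0.12, 0.00571), and *Eci2* (-0.30 ± 0.08, 0.00973, lost with median centring at 0.113). *Eci1* and *Etfdh*, also among these lower calls, were each lost without any 1 of several arrays (up to 0.109 and 0.122). Both were lost as well without C replicate 3 with CI replicate 3 (0.0993 and 0.0689). The thiolase *Acaa2* was called higher there by its brighter probe set (0.28 ± 0.08, 0.0318) and lower by its dimmer one (-0.42 ± 0.13, 0.0314), so it has no settled direction; the brighter set also lost its call without CI replicate 4 (0.109) or 5 (0.0678), or SI replicate 1 (0.0659), 2 (0.0922) or 5 (0.0748). In T20 against SI, where 3 alternatives ended its call (up to 0.596), its brighter set was at -0.51 ± 0.08 (0.00112) and its dimmer at 0.34 ± 0.13 (0.129). T20 against CI called *Decr1* lower (-0.50 ± 0.12, 0.0250) and the hydratase *Echs1* higher (0.40 ± 0.11, 0.0466), beside 1.04% and 1.08% of all probe sets. With only T20 and CI fitted both calls were lost (0.129 and 0.134); *Decr1* also lost its call with an equal median and spread and without C replicate 3 with CI replicate 3, and *Echs1* with quantile normalization and with no filter. *Decr1* lost this call without CI replicate 2 (0.0504) or 3 (0.0672), or T20 replicate 3 (0.0624), 4 (0.0786) or 5 (0.0578). *Echs1* lost it without CI replicate 1 (0.104), 2 (0.117) or 4 (0.0859), or T20 replicate 1 (0.0876), 3 (0.0719), 4 (0.0961) or 5 (0.0912).

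In the peroxisomal and microsomal list, 10 of 15 genes were tested. Each of S against C and SI against CI called 2 lower, beside 4.27% and 6.14% of all probe sets. T20 against C called 0 in limma, with 3 at an unadjusted p under 0.05, where 20.4% of all tested probe sets had such a p. *Decr2*, the peroxisomal reductase, was at -0.65 ± 0.14 in S against C (adjusted p = 0.00379) and -0.54 ± 0.14 in SI against CI (0.0123, lost with only these groups fitted at 0.0706). *Hsd17b4*, the peroxisomal bifunctional enzyme, was at -0.36 ± 0.08 (0.00686) and -0.33 ± 0.08 (0.0116). The first of these calls was lost with an equal median and spread (0.119) and the second with median centring (0.0906). In the ketogenesis list *Bdh1* and *Acat1* were tested, with no call in limma. At an unadjusted p under 0.05, 1 of both passed in SI against CI, where 27.5% of all tested probe sets did. In each other comparison 0 passed.

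In the list of PPAR-alpha, its partners and other targets, 15 of 17 were tested and *Acot2*, a mitochondrial thioesterase with close relatives whose transcripts a probe set may share, was the only gene called. It was 11.65, 11.40, 11.99, 11.50 and 11.85 in C and 10.72, 10.74, 11.35, 10.73 and 10.96 in T20, with no overlap. *Acot2* fell by 0.78 ± 0.14 in T20 against C (adjusted p = 0.00157), by 0.68 ± 0.14 in T20 against CI (0.00621), by 0.60 ± 0.14 in S against C (0.00584) and by 0.51 ± 0.14 in SI against CI (0.0155). T10 against C was -0.68 ± 0.14 (0.0167), lost without C replicate 3 (0.0861) or 5 (0.0622) or T10 replicate 2 (0.0502) or 3 (0.0528). Of its other 2 probe sets, 1 also passed in T20 against C (-0.99, 0.00453) and T20 against CI (-0.83, 0.0222), and 1 passed in neither (-0.44, 0.258, and -0.47, 0.282). Neither passed in S against C (0.0812 and 0.192), SI against CI (0.152 and 0.0855) or T10 against C (0.122 and 0.603), with differences below 0 in each. The bright set lost its call in T20 against CI with only these groups fitted (0.0716) and in SI against CI with median centring (0.0660), and in T10 against C under 5 alternatives (up to 0.356). The receptor itself, *Ppara*, was 7.60 to 8.42 in C and 7.84 to 8.66 in T20, which overlap. It differed by 0.20 ± 0.18 in T20 against C (0.577), 0.33 ± 0.18 in T10 against C (0.574), 0.43 ± 0.18 in S against C (0.163) and 0.48 ± 0.18 in SI against CI (0.0840). The last passed without SI replicate 3 (0.0276) and under 3 other scalings (lowest 0.0296).

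**Figure D4:**
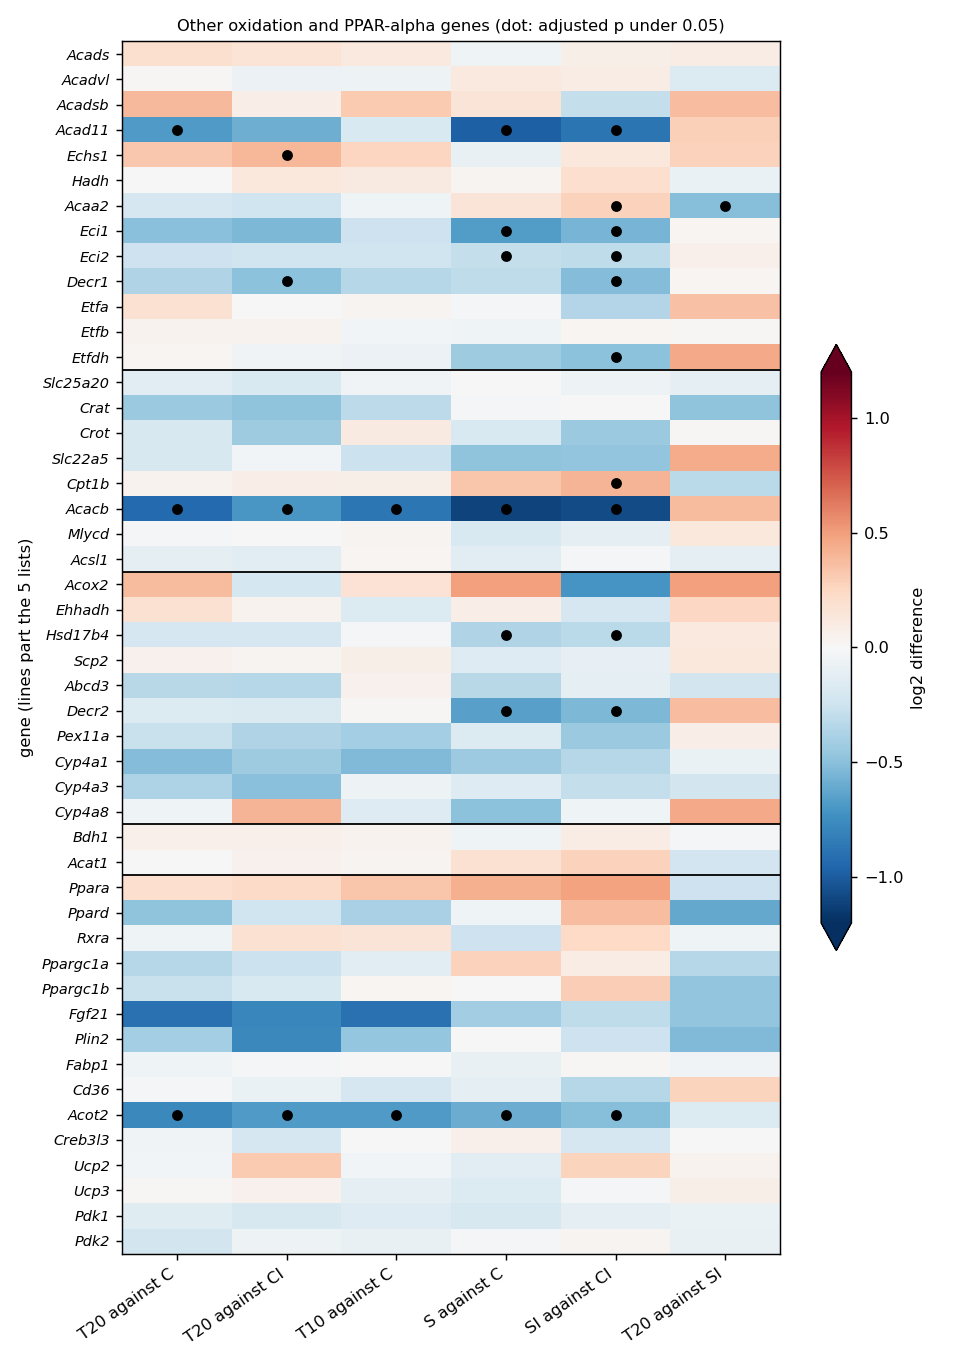
Log2 difference (colour) of the 48 other tested genes (rows, in 5 lists parted by lines) in 6 comparisons (columns); a dot marks an adjusted p under 0.05. *Acacb* and *Acot2* carry a dot in 5 of the 6 columns, and most rows carry none.

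How the 9 genes varied among rats on the same diet is a description with no test, over deviations from the diet means in 30 livers that share array and normalization. *Cpt1a* and *Cpt2* went together most (r = 0.686), followed by *Hadhb* with *Vnn1* (0.500), *Cpt2* with *Acadl* (0.487) and *Cpt1a* with *Hadha* (0.409). Replicate 5 was highest for both *Cpt1a* and *Cpt2* in CI (13.81 and 12.33) and SI (13.55 and 12.20). The same held in T10 (13.77 and 12.48) and T20 (14.16 and 12.39), but not in C or S. Removing diet means keeps any order shared by replicate number, and its part in these correlations was not tested. *Pdk4* and *Angptl4*, both lowest in plant protein groups, correlated at 0.631 over all livers and 0.399 within diets. *Hadha* and *Hadhb*, which share the printed promoter, reached 0.346. *Cpt2* and *Hadhb* ran opposite at -0.313.

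**Figure D5:**
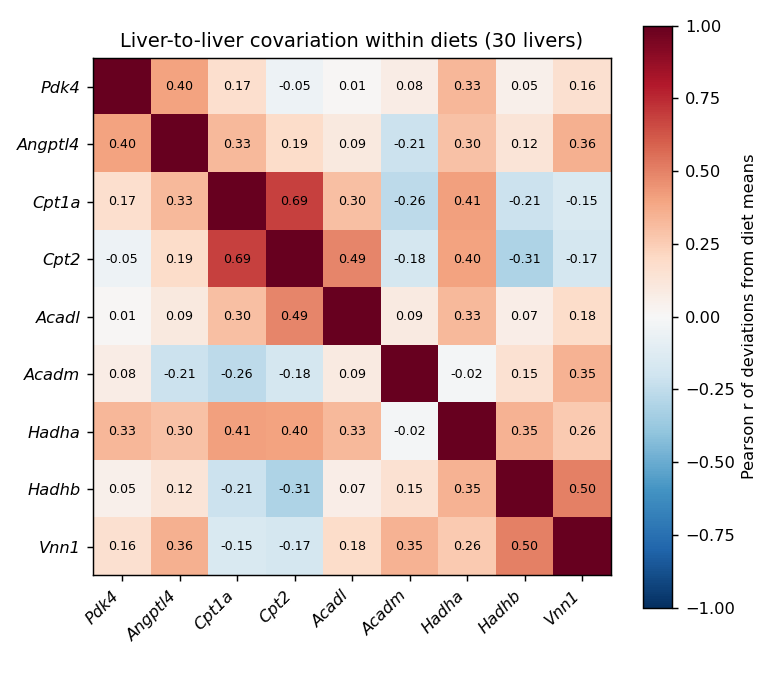
Pearson r (colour and number) between each pair of the 9 genes over 30 livers after each diet's mean was removed. The pair *Cpt1a* and *Cpt2* has the highest value (0.69) and *Cpt2* with *Hadhb* the lowest (-0.31).

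Among 10690 other genes, the gene most like each of the 9 over the 30 livers was found by Pearson r, again as a description. It was *Nfil3* for *Pdk4* (r = 0.784, and 0.697 within diets), *Rab30* for *Cpt1a* (0.876 and 0.898) and *Dctn4* for *Angptl4* (0.682 and 0.468). For the enzymes it was *Kiaa1191* for *Cpt2* (0.813), *Aldh3a2* for *Acadl* (0.768), *Hspd1* for *Acadm* (0.741), *Pc* for *Hadha* (0.677) and *Sod2* for *Hadhb* (0.812). For *Vnn1* it was *Asb13* (0.811, and 0.534 within diets). *Nfil3* encodes a transcription factor of circadian and fasting responses and *Pc* is pyruvate carboxylase. Correlations of the 9 genes with the array median were between -0.29 and 0.25.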

How the data were processed

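Per the labels' protocols, liver RNA of each rat was labelled with biotin and hybridised to 1 array. The authors deposited 1 linear intensity per probe set and array, normalized with SuperNORM per the labels; the reference level and the route back to a linear scale are not given in the sources used here, and folds are on that scale. The 57 controls were left out. After values under 16 were set to 16, log2 was taken. Tests covered probe sets with a mean over 30 arrays above the 40th percentile (log2 7.39, intensity 168). Symbols came from the platform annotation: 20826 probe sets had 1, 436 several and 9780 none, and 20758 were matched to RefSeq with 0 changes. A gene was represented by its brightest tested probe set.

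Using limma 3.58.1 (R 4.3.3), 1 linear model gave the mean of each diet over all 30 arrays (24 residual degrees of freedom, mean-variance trend, two-sided), so each SE uses 1 spread estimated over all diets. Benjamini-Hochberg adjustment ran over the 18625 tested probe sets within each of 10 comparisons. Alternatives were 3 normalizations, 2 filters, 2 floors, the replicate block, only the compared groups, the mean of a gene's probe sets, and arrays left out. The genes, lists and alternatives were chosen with earlier results of these data known. All 9 genes are named, with the most-like gene of each and, per list and comparison, up to 4 members that passed with the smallest adjusted p. *Ppara* is always given, and *Eci1* and *Etfdh* in SI against CI are named as well for their lost calls. Over 75 pairs of same-numbered arrays the median correlation of deviations was 0.0459 (highest 0.35, with 22 pairs above 0.1). For arrays of other diets with another number the median was -0.013. Of the 30 arrays, 8 were most like an array of their own number. Whether the replicate number marks a shared order of handling was not tested. Python 3.11.15 and matplotlib 3.10.9 drew the figures.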

Additional observations from a re-analysis of the deposited data

Results flagged for a closer look

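Within the 54 groups of 5 livers (9 genes in 6 diets), 5 had 1 liver far from the other 4 by Dixon's criterion; chance flags about 1 in 20 groups. *Angptl4* was 13.24 in SI replicate 3 and 12.40 to 12.61 in the other SI livers. *Cpt1a* was 14.16 in T20 replicate 5, the others 12.77 to 13.11. *Vnn1* was 9.58 in that same T20 liver, the others 10.24 to 10.48. *Acadl* was 14.34 in T10 replicate 1, the others 13.96 to 14.06. *Hadha* was 13.31 in CI replicate 3, the others 13.05 to 13.11; this is 1 of the 2 arrays with shared normalization parameters. No difference between protein sources in the isoflavone effect passed for any of the 9 genes (adjusted p 0.532 to 0.985 in limma, interaction).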

How the results depend on the processing

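The rerun covered the 9 genes and *Ppara* in 6 comparisons, *Pdk4* and *Angptl4* in T20 against T10, and the called pathway genes. Over the alternatives that left out no single array, 903 gene results kept direction and side of the threshold, 53 lost their call, 5 gained one and 18 turned sign; with each array left out the numbers were 807, 62, 3 and 28. Members called in T20 against SI went from 1 to 0 with an equal median and spread and with only the compared groups, and ranged from 0 to 1 over left-out arrays; in SI against CI the count was 2 with the replicate block and 1 to 2 over left-out arrays. Of the other counts the block moved only that of the interaction over the whole array by over 1.5 times (3 to 1); besides *Cpt1a* there, *Cpt2* in T20 against C passed with it (adjusted p = 0.0488).

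Apart from *Acaa2*, the values that turned sign had no call. With an equal median and spread these were *Acadm* in T20 against C (0.20) and T10 against C (0.10), *Hadha* in T20 against C (0.17), T20 against CI (0.0072), T20 against SI (0.0685), S against C (0.0286) and SI against CI (-0.0613), *Hadhb* in T10 against C (0.0702), T20 against CI (0.0638) and S against C (0.0726), and *Acadl* in T20 against SI (0.11). Median centring turned *Hadhb* in T20 against CI (0.0237) and S against C (0.0164). The mean of a gene's probe sets turned *Hadha* in S against C (0.0393) and SI against CI (-0.11) and *Acaa2* in SI against CI (-0.0698), whose probe sets disagree. Without C replicate 3 and CI replicate 3, *Hadhb* in T20 against CI was 0.0332; without T10 replicates 3, 4 and 5, *Acadm* in T10 against C was 0.0226. Over single left-out arrays the turned values ranged from -0.14 to 0.0174 (*Acadm*, T20 against C), -0.10 to 0.0597 (*Acadm*, T10 against C), -0.038 to 0.20 (*Cpt1a*, T10 against C), -0.27 to 0.0421 (*Vnn1*, T20 against C), -0.10 to 0.0145 (*Hadha*, S against C), -0.0156 to 0.0496 (*Hadha*, SI against CI), -0.0524 to 0.0289 (*Hadhb*, S against C), -0.0988 to 0.0502 (*Hadhb*, T20 against CI), -0.0235 to 0.30 (*Pdk4*, T20 against SI), -0.30 to 0.0108 (*Cpt2*, T20 against SI) and -0.11 to 0.0060 (*Acadl*, T20 against SI). The cause was not tested.

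Probe sets called over the whole array were 839 in T20 against C (213 to 1228 over the alternatives), 60 in T10 against C (11 to 76), 394 in T20 against CI (131 to 541), 653 in T20 against SI (39 to 970) and 3 in the interaction (0 to 4), with 0 to 1 in T20 against T10 and CI against C; the lowest counts over 2-group fits rest on fewer arrays. Over single left-out arrays they were 389 to 1029, 27 to 69, 176 to 388, 228 to 1026 and 0 to 5, with 898 to 1302 in S against C (1351) and 1353 to 2217 in SI against CI (2168). Median centring moved the median of all differences by up to 0.11 (in SI against CI), quantile normalization by up to 0.0598 and an equal median and spread by up to 0.0643. No count over the whole array was made for the mean of a gene's probe sets. The third *Hadha* probe set was below the filter (log2 7.39). So were single livers of tested sets: 2 of *Acacb* (lowest 7.23), 1 of *Cpt1b* (7.34), 1 of the dimmer *Hadha* set (7.36) and 2 of the dimmer *Eci1* set (6.40). Among list genes with no call, 9 livers of the set that represents *Cyp4a8* were at or below it (lowest 6.15). The same held for 10 livers of another *Cyp4a8* set, 12 of a dimmer *Hadh* set and 5 of a dimmer *Ucp3* set.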
